A study of Mus musculus with 12 samples.

Results

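The RNA of 6 genes that mark basophils and mast cells was followed in whole bone marrow of B6 mice: Mcpt8, Prss34, Cpa3, Fcer1a, Cd200r3 and Hdc. The 6 were named as a list, chosen with earlier results of these data known, and all 6 are among the 21853 genes of the deposited table and the 10994 that were expressed highly enough to test. The table holds 12 RNA-seq libraries in 4 groups of 3. Control mice were not irradiated, and no gavage is stated for them. TBI mice received total-body irradiation of 5 Gy gamma rays at 0.66 Gy/min and then 100 µL of olive oil by mouth, as vehicle. TBI+DEIX mice received the same irradiation and then oral DEIX, which the series title names as deinoxanthin, at 25 mg/kg once a day for 14 days. DEIX mice received DEIX without irradiation. Marrow was taken on day 14. Age and sex are not given, and nothing says that the libraries of a group came from separate animals, so the tests below measure the spread between these libraries, which may be technical.

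Basophils are rare blood granulocytes that mature in the marrow, and mast cells are their tissue-resident counterparts, which leave the marrow as progenitors. Both carry the high-affinity receptor for IgE on their surface and store proteases and histamine in granules, which they release when an antigen crosslinks the receptor. In the mouse, growth of basophils depends on interleukin-3 and on the transcription factor GATA2, and several of their granule proteases lie in gene clusters shared with mast cells, neutrophils and cytotoxic lymphocytes.

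Levels are given as FPKM, fragments scaled by the length of the transcript and by the number of fragments mapped in the library. Prss34 and Mcpt8, the granule serine proteases, were the highest of the 6 in control marrow, at 226 ± 19.6 and 131 ± 16.1 FPKM (mean ± SD, n = 3 here and below). Hdc followed at 97.9 ± 12.8, then Cpa3 at 20.7 ± 1.63, Fcer1a at 10.8 ± 0.76 and Cd200r3 at 4.60 ± 0.35. Prss34 was above Mcpt8, and Hdc above Cpa3, Cpa3 above Fcer1a and Fcer1a above Cd200r3, in 12 of 12 libraries. Only the place of Hdc moved: Mcpt8 was above it in the 3 control libraries and in 1 DEIX library, and below it in the other 8.

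The mast cell label holds only in part for this marrow. Of 9 genes listed as marking mature mast cells, 7 stayed under 0.3 FPKM in every library, and 3 of those, Tpsab1, Mrgprb1 and Mrgprb2, were listed at 0 throughout. The other 2 were Kit, the stem cell factor receptor that stem and progenitor cells also carry, and Slc18a2, the transporter that loads histamine into granules. The basophil list was present with 7 of 7 genes above that level in at least 1 library. Its summed level was 369 to 427 FPKM in control, 97.5 to 248 in TBI, 99.0 to 310 in TBI+DEIX and 238 to 361 in DEIX, most of it from Prss34 and Mcpt8.

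Irradiation with vehicle went with lower values of 5 of the 6 genes, in libraries that did not overlap with control, while Hdc was level. The TBI means were 46.6% of control for Prss34, 53.3% for Mcpt8, 57.6% for Fcer1a, 61.7% for Cd200r3, 66.3% for Cpa3 and 104% for Hdc. None of the 6 differences passed the test over all genes (limma, Benjamini-Hochberg adjusted p under 0.05), beside 3.99% of all genes tested, and 3 had an unadjusted p under 0.05, as did 1988 of the 10994 genes tested. In whole marrow, fewer cells of a type and less RNA per cell cannot be told apart.

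Mcpt8 (mouse mast cell protease 8, a chymase-like enzyme used as a basophil marker) is at chr14:56082166-56085273 on GRCm38. It was at 122, 122 and 150 FPKM in control replicates 1 to 3, 29.0, 91.5 and 89.6 in TBI, 39.6, 69.1 and 118 in TBI+DEIX, and 76.2, 117 and 102 in DEIX. Every control library was above every other library. TBI replicate 1 and TBI+DEIX replicate 1 were far below the others of their groups. The difference between TBI and control was -1.06 on the log2(FPKM + 1) scale (SE 0.44, 95% interval -2.04 to -0.09, limma adjusted p = 0.235).

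Prss34 (mouse mast cell protease 11, a tryptase of basophils and mast cells) is at chr17:25298394-25300165. It was at 213, 215 and 248 FPKM in control, 57.4, 135 and 123 in TBI, 41.2, 110 and 161 in TBI+DEIX, and 134, 210 and 168 in DEIX. Again the 3 control libraries were the highest of the 12, and the first replicate was the lowest of each other group. The difference between TBI and control was -1.18 (SE 0.44, 95% interval -2.15 to -0.22, limma adjusted p = 0.181).

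Cpa3 (carboxypeptidase A3, a granule exopeptidase of mast cells and basophils) is at chr3:20215620-20242181. It was at 21.9, 21.2 and 18.8 FPKM in control, 6.48, 17.7 and 16.95 in TBI, 9.68, 14.5 and 26.95 in TBI+DEIX, and 13.6, 22.0 and 17.8 in DEIX. TBI lay below control without overlap, by little in replicates 2 and 3, and TBI+DEIX replicate 3 was the highest library of all. The difference between TBI and control was -0.67 (SE 0.38, 95% interval -1.50 to 0.17, limma adjusted p = 0.389).

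Fcer1a, the IgE-binding alpha chain of the high-affinity IgE receptor, is at chr1:173221284-173227214. It was at 10.7, 11.6 and 10.1 FPKM in control, 3.96, 6.56 and 8.09 in TBI, 3.58, 8.41 and 14.2 in TBI+DEIX, and 12.4, 10.7 and 14.7 in DEIX. TBI was below control without overlap, TBI+DEIX spanned nearly the whole range, and 2 DEIX libraries were above every control library. The difference between TBI and control was -0.75 (SE 0.36, 95% interval -1.53 to 0.03, limma adjusted p = 0.296).

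Cd200r3, an activating member of the CD200 receptor family found on basophils and mast cells, is at chr16:44943678-44981380. It was at 4.93, 4.24 and 4.62 FPKM in control, 1.78, 3.28 and 3.46 in TBI, 2.97, 3.77 and 3.67 in TBI+DEIX, and 3.09, 4.80 and 4.30 in DEIX. The 6 irradiated libraries were all below the 3 control libraries. The difference between TBI and control was -0.57 (SE 0.19, 95% interval -0.99 to -0.16, limma adjusted p = 0.131).

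Hdc, histidine decarboxylase, is the enzyme that makes histamine, and in marrow it is also expressed by immature cells of the neutrophil lineage. It is at chr2:126593667-126619299. It was at 93.9, 87.5 and 112 FPKM in control, 111, 96.5 and 98.7 in TBI, 90.7, 269 and 216 in TBI+DEIX, and 212, 102 and 195 in DEIX. The TBI libraries lay within the control range, and 2 libraries of each DEIX-treated group were above every library without DEIX. The difference between TBI and control was 0.06 (SE 0.36, 95% interval -0.73 to 0.86, limma adjusted p = 0.947).

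**Figure D1:**
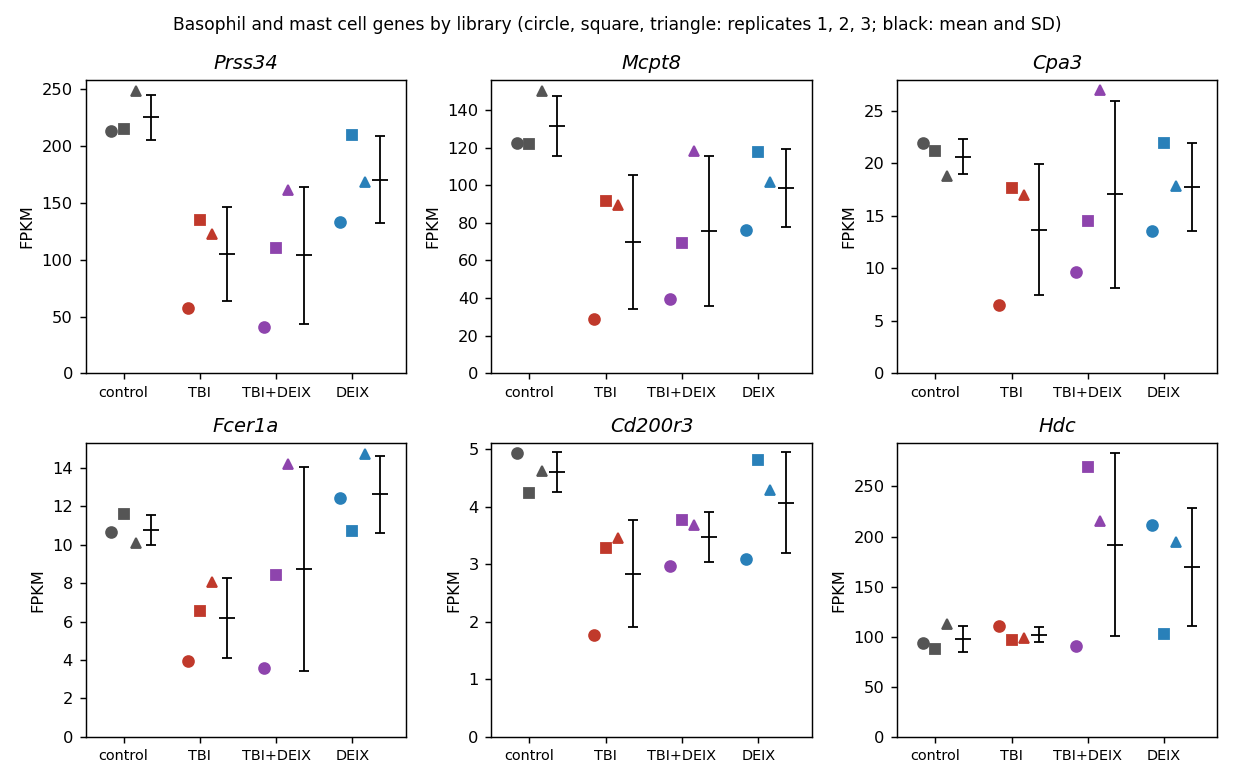
FPKM (vertical axis, from 0) of the 6 genes in each of the 12 libraries by group, with circles, squares and triangles for replicates 1, 2 and 3 and the group mean ± SD in black. For Prss34, Mcpt8, Cpa3, Fcer1a and Cd200r3 the 3 TBI libraries are below the 3 control libraries and replicate 1 is the lowest of both irradiated groups; for Hdc the 4 libraries from 195 to 269 FPKM are all DEIX-treated.

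Non-overlap in the lower direction held for 5 of 6 genes in TBI against control, against 16.3% of all genes tested. The median difference of the 6 was -0.71 on the log2 scale, and that of all genes tested was 0.05. TBI replicate 1 and TBI+DEIX replicate 1 were the lowest 2 of the 12 libraries for 5 of the 6 genes, all but Hdc. The same 2 libraries also had the lowest summed level of the 8 B lineage markers, at 24.6 and 6.19 FPKM, with control at 463 to 578. The part of that lineage in the differences was not tested. Without replicate 1, TBI averaged 57.1% of the control mean for Prss34, 69.0% for Mcpt8, 68.0% for Fcer1a, 73.2% for Cd200r3, 83.8% for Cpa3 and 99.8% for Hdc. With both first libraries left out, an alternative chosen after seeing the data, Prss34 was lower in TBI than in control at a limma adjusted p of 0.0337, with a difference of -0.80 (SE 0.20), and the other 5 did not pass. With a weight per library in the fit, 4 of the 6 genes passed (Prss34, Mcpt8, Fcer1a and Cd200r3), but the calls over all genes also went from 439 to 4218. With only the 2 groups compared in the fit, 2 passed (Prss34 and Fcer1a), among 1417 over all genes.

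The spread was larger outside the control group. In control, the SD of log2 values ran from 0.09 for Cd200r3 to 0.18 for Hdc, against a root mean square of 0.20 over all genes tested. In TBI it was 0.93 for Mcpt8, 0.75 for Cpa3 and 0.67 for Prss34, against 0.25 over all genes. In TBI+DEIX it reached 1.00 for Prss34 and 0.87 for Fcer1a but was 0.15 for Cd200r3, against 0.44 over all genes. In DEIX without irradiation it was 0.21 for Fcer1a to 0.57 for Hdc, above control for all 6 genes, against 0.25 over all genes. Hdc in TBI, at 0.10, was below its control value.

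The comparison of TBI+DEIX with TBI asks what DEIX changed in irradiated marrow. For Prss34, Mcpt8, Cpa3, Fcer1a and Cd200r3, the 2 groups overlapped, and the 95% interval of each difference took in no change. None of the 6 passed the limma test, or had an unadjusted p under 0.05, beside 8.10% of all genes called. With only these 2 groups in the fit, 0 of all genes tested were called, so the calls against TBI in the gene lists below were lost in that fit. The differences were 0.14 for Mcpt8 (95% interval -0.83 to 1.12), -0.12 for Prss34 (-1.09 to 0.84), 0.30 for Cpa3 (-0.54 to 1.13), 0.31 for Fcer1a (-0.47 to 1.10) and 0.25 for Cd200r3 (-0.16 to 0.66). These intervals leave room for a change of either sign, so the data do not show that the groups were alike.

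Hdc had the largest difference of the 6 there, at 0.77 (SE 0.36, 95% interval -0.03 to 1.57, limma adjusted p = 0.201). Its mean was 102 ± 7.61 FPKM in TBI and 192 ± 91.6 in TBI+DEIX. TBI+DEIX replicates 2 and 3 were above the 3 TBI libraries, and replicate 1 was below them. Without TBI+DEIX replicate 1, the difference was 1.24 (SE 0.26) and passed (limma adjusted p = 0.011), and Fcer1a then also passed, at 0.78 (SE 0.25, limma adjusted p = 0.0452). TBI+DEIX replicate 1 stood apart from the others over all genes as well, at the far end of the first principal component, which held 38.3% of the variance.

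DEIX without irradiation was compared with control. No gavage is stated for control mice, so DEIX and its oral dosing cannot be told apart here. Of the 6 genes, 4 were lower and 2 higher on average, beside 47.7% of all genes lower. None passed the limma test, beside 7.24% of all genes called, and none had an unadjusted p under 0.05. Mcpt8 averaged 75.0% of control and Prss34 75.6%, both without overlap, which was so for 17.2% of all genes tested in the lower direction. Their differences were -0.43 (95% interval -1.40 to 0.55, limma adjusted p = 0.597) and -0.42 (-1.39 to 0.55, limma adjusted p = 0.601). Cpa3 averaged 86.1%, Cd200r3 88.4% and Fcer1a 117% of control, with overlap.

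Hdc averaged 173% of control in DEIX, at 170 ± 58.9 FPKM. The difference was 0.73 (SE 0.36, 95% interval -0.07 to 1.52, limma adjusted p = 0.246). DEIX replicates 1 and 3 were above every control library, while replicate 2, at 102, lay within the control range.

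Against control, irradiation with DEIX had the only call among the 6, a lower level of Prss34 (-1.31, SE 0.44, 95% interval -2.28 to -0.34, limma adjusted p = 0.0439). The 3 TBI+DEIX libraries were all below control, and their mean was 46.2% of the control mean, close to the 46.6% of TBI. In this comparison 30.0% of all genes were called, so 1 of 6 is a smaller share than the background. The groups did not overlap, in the lower direction, for Prss34, Mcpt8 and Cd200r3, 3 of 6 genes against 21.1% of all genes. Mcpt8 averaged 57.6% of control (-0.92, limma adjusted p = 0.142), Cd200r3 75.5% (-0.33, limma adjusted p = 0.211), Fcer1a 81.1% and Cpa3 82.6%. Hdc averaged 196% of control (0.83, SE 0.36, limma adjusted p = 0.106). Over the other settings, the limma adjusted p of Prss34 ran from 0.0075 to 0.119, and the call was lost without a filter, with only these 2 groups in the fit, and without any 1 control library, TBI+DEIX replicate 1 or TBI+DEIX replicate 2.

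TBI and TBI+DEIX were both compared with the same control libraries, so their differences from control are not independent of each other. Without its replicate 1, TBI+DEIX averaged 60.1% of control for Prss34, 71.3% for Mcpt8, 81.0% for Cd200r3, 100.4% for Cpa3, 105.0% for Fcer1a and 248% for Hdc. Hdc then passed against control at 1.30 (SE 0.26, limma adjusted p = 0.00315), and Prss34, at -0.75, did not (limma adjusted p = 0.0908).

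The interaction asks whether DEIX moved these genes differently in irradiated and in unirradiated mice. Its unirradiated arm sets DEIX against control mice with no stated gavage, while its irradiated arm sets it against vehicle. A different response to DEIX and an effect of the oral dosing therefore cannot be told apart in it. All 6 interaction terms were above 0, from 0.04 for Hdc to 0.57 for Mcpt8, while 53.5% of all genes tested were below 0. Their standard errors were from 0.26 to 0.63, and the 6 signs are not independent, since most of these genes moved together over the libraries. None of the 6 passed (limma adjusted p of 0.871 or more) or had an unadjusted p under 0.05, beside 0.200% of all genes called. For Prss34, Fcer1a and Hdc the sign turned when a single library was left out.

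**Figure D2:**
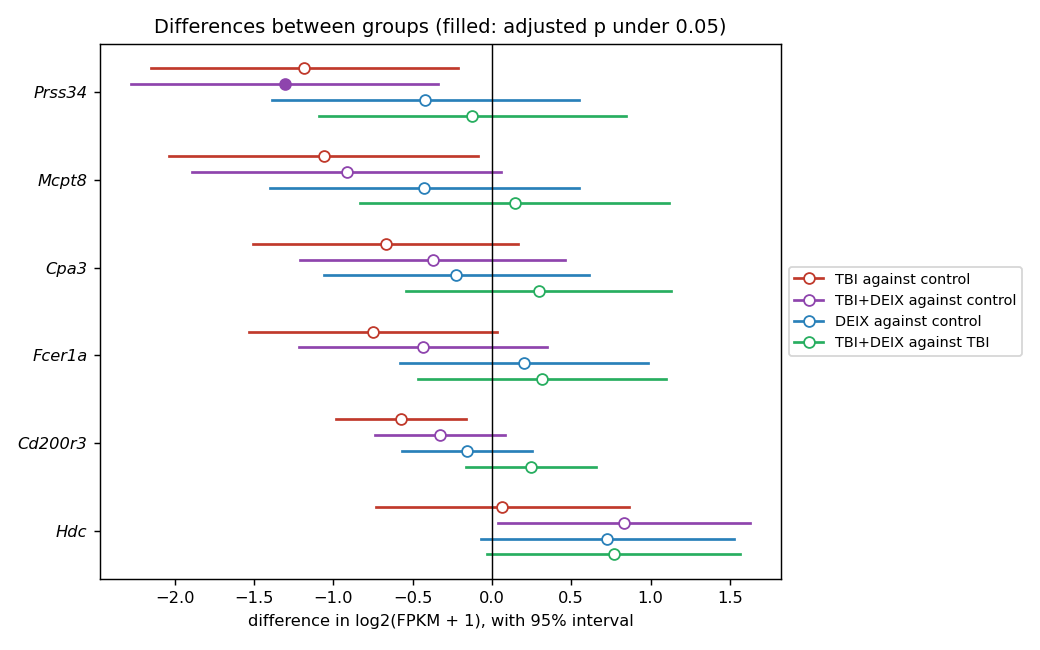
Difference in log2(FPKM + 1) with its 95% interval (horizontal axis) for the 6 genes in 4 comparisons, filled where the limma adjusted p is under 0.05. The one filled point is Prss34 in TBI+DEIX against control, at -1.31, and the 3 Hdc comparisons that involve DEIX are the ones with differences from 0.73 to 0.83.

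The 5 genes other than Hdc went up and down together from library to library. Over the 12 libraries, which share their group structure and the depth of each library across genes, Pearson r of log2 values was between 0.70 and 0.95 in the 10 pairs of these 5 genes. It was between -0.02 and 0.44 for Hdc with each of the 5. Without TBI replicate 1 and TBI+DEIX replicate 1 the 10 pairs ran from 0.27 to 0.93, so the closeness of some pairs rests on those libraries.

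Within a library, the ratio of one gene to Mcpt8 is free of the scale of that library. Prss34 was 166% to 177% of Mcpt8 in control, 137% to 198% in TBI, 104% to 159% in TBI+DEIX and 165% to 179% in DEIX, so both proteases kept close to each other in the unirradiated groups. Cpa3 was 12.5% to 17.9% of Mcpt8 in control, 18.9% to 22.4% in TBI, 21.05% to 24.5% in TBI+DEIX and 17.5% to 18.7% in DEIX. In both irradiated groups every library had more Cpa3 per Mcpt8 than any library of control or DEIX, though the nearest were at 18.9% and 18.7%. Hdc was 71.9% to 76.7% of Mcpt8 in control, against 105% to 382% in TBI, 182% to 390% in TBI+DEIX and 87.2% to 278% in DEIX.

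**Figure D3:**
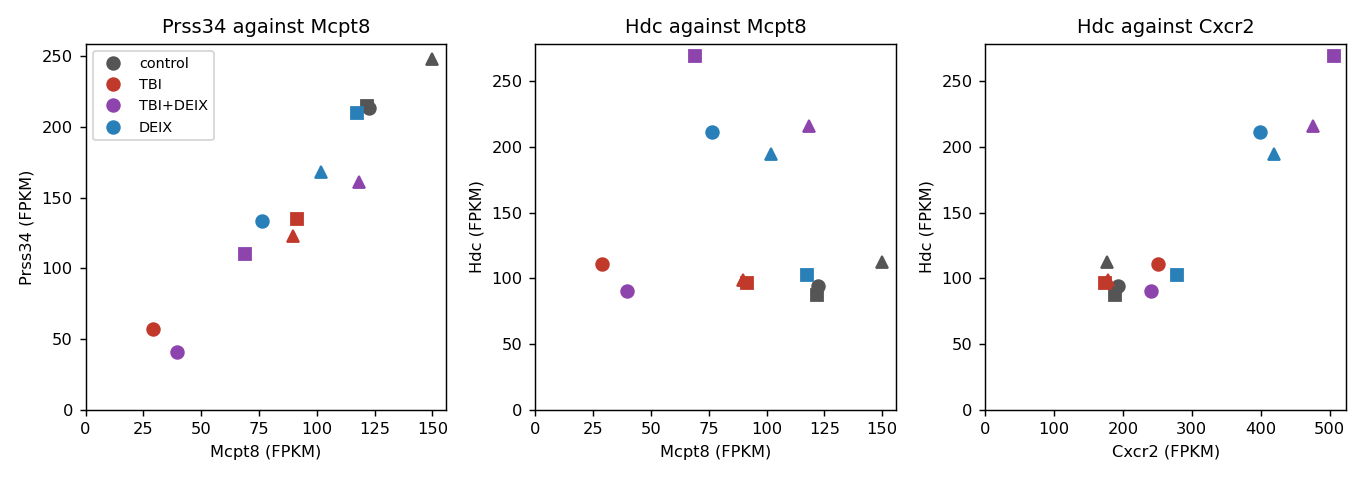
FPKM of Prss34 against Mcpt8, Hdc against Mcpt8 and Hdc against Cxcr2 in the 12 libraries, with colour for the group and circle, square and triangle for replicates 1, 2 and 3. Prss34 lies along 1 line with Mcpt8, from 41.2 to 248 FPKM. Hdc, between 87.5 and 269 FPKM, has no such line with Mcpt8, and its highest values go with the highest of Cxcr2.

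The promoters of 4 genes of the set are shown because each holds, within the 250 bases before its RefSeq start, the sequence bound by GATA2 and GATA1. They are RefSeq sequences on GRCm38.p6, written 5′ to 3′ on the strand of the gene. Capitals mark AGATAA or TGATAA, searched on both strands; a match on the opposite strand reads TTATCT or TTATCA.
Prss34 promoter, chr17:25298144-25298393, plus strand: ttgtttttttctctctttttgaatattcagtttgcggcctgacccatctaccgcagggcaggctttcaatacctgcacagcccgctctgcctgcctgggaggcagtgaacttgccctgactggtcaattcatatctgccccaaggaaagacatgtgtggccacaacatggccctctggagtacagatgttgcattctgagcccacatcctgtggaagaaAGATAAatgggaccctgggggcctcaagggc
Cpa3 promoter, chr3:20242182-20242431, minus strand: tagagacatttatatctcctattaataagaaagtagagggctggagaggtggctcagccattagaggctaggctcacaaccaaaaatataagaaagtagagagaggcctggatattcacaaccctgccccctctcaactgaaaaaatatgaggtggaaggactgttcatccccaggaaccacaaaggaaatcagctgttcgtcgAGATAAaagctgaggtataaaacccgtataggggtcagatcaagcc
Fcer1a promoter, chr1:173227230-173227479, minus strand: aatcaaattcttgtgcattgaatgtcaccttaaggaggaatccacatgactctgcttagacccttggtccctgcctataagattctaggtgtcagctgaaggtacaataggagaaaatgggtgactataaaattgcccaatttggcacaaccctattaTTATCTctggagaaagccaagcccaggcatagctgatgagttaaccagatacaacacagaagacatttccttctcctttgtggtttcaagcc
Cd200r3 promoter, chr16:44943428-44943677, plus strand: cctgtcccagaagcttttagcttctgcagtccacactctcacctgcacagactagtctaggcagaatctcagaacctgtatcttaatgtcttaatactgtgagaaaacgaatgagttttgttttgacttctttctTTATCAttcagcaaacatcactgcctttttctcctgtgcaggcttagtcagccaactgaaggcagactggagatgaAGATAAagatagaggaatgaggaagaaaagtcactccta
The match began 31 bases before the start in Prss34, 46 in Cpa3 and 92 in Fcer1a, and 39 and 115 in Cd200r3. All 6 genes had a RefSeq window, and Mcpt8 and Hdc held neither sequence in it. The RefSeq starts of Mcpt8 and Hdc lie inside the gene models of GENCODE, and the Hdc window lies wholly within the gene span given above, so those windows may not be the sequence before the start in use. The same search found AGATAA or TGATAA in 14.1% of 20143 such windows, from 16515 genes. The C/EBP sequence TTGCNNAA was in 2 of the 6 windows, Fcer1a and Cd200r3, and in 8.96% of all. The E-box CANNTG, the kind of site MITF binds, was in all 6 and in 62.5% of all, and the STAT5 sequence TTCNNNGAA was in none of the 6 and in 6.60% of all. A match of this kind is a description of the letters, not evidence of binding.

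Gata2, which encodes the GATA factor of basophils and their progenitors, was at 9.72, 9.01 and 11.9 FPKM in control, 2.69, 8.61 and 7.56 in TBI, 8.07, 9.41 and 9.18 in TBI+DEIX, and 7.12, 10.8 and 8.61 in DEIX. TBI lay below control without overlap, with replicate 1 the lowest of all 12 libraries, but the difference did not pass (-0.73, SE 0.30, limma adjusted p = 0.224). Of 11 transcription factors listed for basophils and mast cells, 0 passed the limma test in TBI or in DEIX against control, beside 3.99% and 7.24% of all genes. In each comparison 2 of the 11 had an unadjusted p under 0.05, as did 1988 and 2718 of the 10994 genes tested. In TBI+DEIX, Spi1 rose and Irf8 fell against TBI and against control, and Ikzf1 rose against control, which makes 3 of 11 called against control beside 30.0% of all genes. Scaling the libraries to equal sums (TPM) lost the calls of Ikzf1 against control and of Spi1 against TBI. Those sums include S100a8, S100a9 and Ngp, which are listed at 0 in some libraries. With sums that leave these genes out, the call of Spi1 held and that of Ikzf1 was lost.

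Both serine proteases sit in clusters in which most other genes were nearly silent here, with Ctsg above Mcpt8 itself as the exception. The cluster around Mcpt8 spans chr14:55941451-56262260 and holds 15 protease genes, 12 of which stayed under 0.3 FPKM in every library, among them Cma1 and Mcpt4, the chymases of connective tissue mast cells. Besides Mcpt8, Ctsg, the neutrophil primary granule protease next to it, averaged 280 FPKM over the 12 libraries, and Gzmb, the granzyme of cytotoxic cells at the far end, averaged 1.43. The cluster around Prss34 spans chr17:25298394-25374442, with 6 genes. Of these, 4 stayed under 0.3 FPKM, including Tpsab1 and Tpsb2, the main mast cell tryptases, and Prss28 averaged 0.29. Reads of near-identical copies could be split between genes of such clusters, and how they were assigned was not tested.

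**Figure D4:**
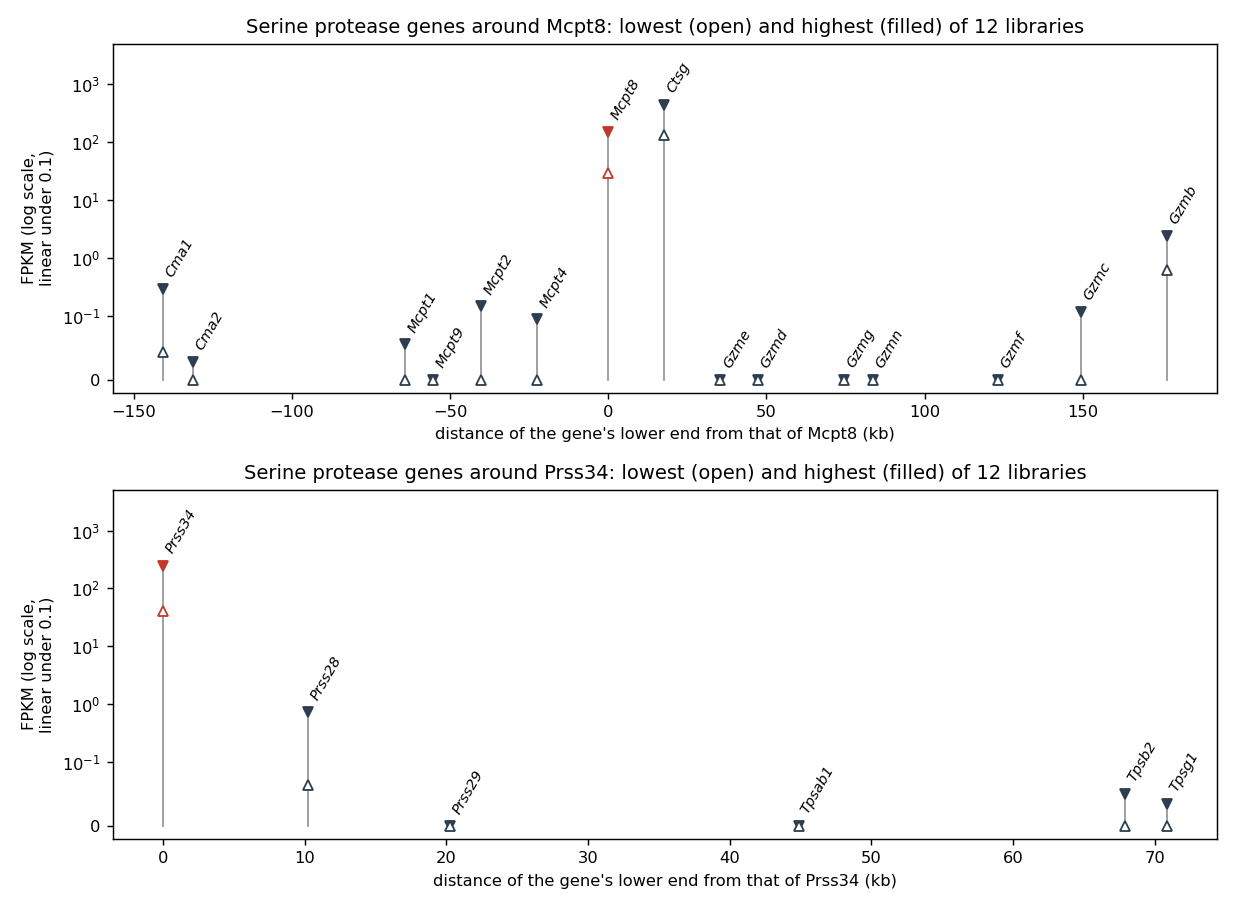
Lowest and highest FPKM over the 12 libraries (vertical axis, log scale that is linear under 0.1) of the serine protease genes around Mcpt8 and Prss34, by distance in kb. Mcpt8, Ctsg and Gzmb are the genes above 0.3 FPKM in the upper cluster, and Prss34 and Prss28 in the lower.

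Of 17 granule genes listed for both cell types, 8 were expressed highly enough to test and 1, Prss34, passed in any comparison, the one of TBI+DEIX with control, in which 30.0% of all genes were called. The other granule genes of high level were Srgn, the proteoglycan core that holds proteases in granules, and Ctsg, both also made by neutrophils. Srgn was at 503 to 581 FPKM in control and 352 to 487 in TBI, which did not pass.

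The other chains of the IgE receptor are given side by side, and no test compares them. Ms4a2, the beta chain found in basophils and mast cells, was at 17.9, 14.9 and 13.3 FPKM in control, 4.98, 11.2 and 10.1 in TBI, 11.3, 10.7 and 11.3 in TBI+DEIX, and 11.9, 17.4 and 14.4 in DEIX. Its TBI libraries were below control without overlap, as for Fcer1a (-0.80, SE 0.24, limma adjusted p = 0.0958). Fcer1g, the gamma chain shared with receptors of many myeloid cells, was at 375 to 1297 FPKM, with TBI and control overlapping (-0.10, SE 0.40, limma adjusted p = 0.93). Of the 14 genes of the receptor and its signalling, all tested, 1 fell in TBI against control, the adaptor Lat2 (-0.61, SE 0.14, limma adjusted p = 0.039), beside 3.99% of all genes called. In TBI+DEIX against TBI, where 8.10% of all genes were called, 2 of the 14 rose, the kinases Lyn (0.73, SE 0.12, limma adjusted p = 0.016) and Syk (0.45, SE 0.11, limma adjusted p = 0.036), both of which many blood cells use. Lyn alone rose in DEIX against control, beside 7.24% of all genes called. In TBI+DEIX against control, Gab2, Lyn and Plcg2 rose, and Fyn and Lat2 fell, 5 of 14 beside 30.0% of all genes. With TPM scaling, the calls of Lat2 in TBI, of Lyn and Syk against TBI, of Lyn in DEIX and of Gab2, Lyn and Plcg2 against control were lost, with no change of sign. With sums that leave out S100a8, S100a9 and Ngp, those of Lyn against TBI and in TBI+DEIX against control held, and the others were lost.

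Of 9 histamine genes, 5 were tested. In TBI against control 1 of the 5 was called, beside 3.99% of all genes, and in TBI+DEIX against control 1, beside 30.0%. Slc18a2, the granule transporter of histamine and other amines, was at 2.71, 2.04 and 2.38 FPKM in control and 0.55, 1.07 and 1.36 in TBI, with no overlap, and passed there (-0.78, SE 0.18, limma adjusted p = 0.0359). That call was lost in 8 of 15 other settings, TPM scaling among them. It was at 2.02, 1.26 and 1.26 in TBI+DEIX and at 1.99, 2.52 and 2.81 in DEIX, and passed in neither against control. Hrh2, a histamine receptor of myeloid and other cells, was at 7.82 to 8.57 FPKM in control and 15.6 to 20.6 in TBI+DEIX, and passed in that comparison (1.01, SE 0.20, limma adjusted p = 0.00385). Hrh4, the receptor through which histamine draws in basophils, mast cells and eosinophils, stayed at 0.05 to 1.01 FPKM and was not tested.

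Some of the 9 neutrophil markers moved with Hdc over the libraries and others did not. Over the 12 libraries, which share their group structure, Pearson r with Hdc was 0.93 for Mmp8, 0.92 for Cxcr2, 0.81 for Ltf, 0.70 for Cebpe, -0.07 for Elane and -0.25 for Mpo, genes chosen after their values were seen. Cxcr2, the chemokine receptor of maturing neutrophils, was at 193, 188 and 177 FPKM in control, 251, 173 and 178 in TBI, 241, 507 and 476 in TBI+DEIX, and 398, 278 and 420 in DEIX. In both DEIX-treated groups the library with the lowest Hdc was also the one with the lowest Cxcr2. Cxcr2 passed in TBI+DEIX against control (1.05, SE 0.27, limma adjusted p = 0.0142), as did the granule gene Ltf (1.03, lost in 9 of 16 other settings), while Elane, a protease of earlier neutrophil stages, was called lower there (-0.94, limma adjusted p = 0.0208). Of the 9, 5 were higher and 4 lower in that comparison, with a median of 0.01, and 8 were higher in DEIX against control, with a median of 0.19 and none called. Of all genes, 30.0% were called in the first comparison, and 47.7% were lower in the second. The summed level of the 9 neutrophil markers was 11854 to 17199 FPKM in control, 14287 to 16760 in TBI, 11415 to 21757 in TBI+DEIX and 12328 to 18854 in DEIX. None of the 9 is at 0 in any group, and their part in the Hdc values was not tested.

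The receptors that drive growth of these cells are given by their own counts, and no test compares them with the granule genes. Il3ra, the interleukin-3 receptor alpha chain, was at 12.97 to 19.6 FPKM over all libraries and passed in no comparison. Csf2rb and Csf2rb2, the shared signalling chain for interleukin-3, interleukin-5 and GM-CSF and its copy specific to interleukin-3, rose in DEIX against control by 1.07 (SE 0.22) and 1.21 (SE 0.25), with limma adjusted p of 0.019 and 0.0196. They also rose in TBI+DEIX against TBI, by 1.19 (SE 0.22) and 1.27 (SE 0.25), with limma adjusted p of 0.0177 and 0.0199. With TPM scaling these 4 calls were lost, though not with sums that leave out S100a8, S100a9 and Ngp. Each was lost in 4 to 6 of 16 other settings, and the sign held in every setting. These 2 genes are close copies, and reads could be split between them. Of the 10 growth factor and alarmin receptors tested of 11 listed, 0 passed the limma test in TBI against control, beside 3.99% of all genes. An unadjusted p under 0.05 was found there for 1 of the 10 and for 1988 of the 10994 genes tested. In DEIX against control 2 rose, beside 7.24% of all genes called, and in TBI+DEIX against TBI 4 rose, beside 8.10%. In TBI+DEIX against control 6 rose and 1, Kit, fell, beside 30.0%. Kit was at 18.1 to 19.5 FPKM in control and 13.1 to 14.2 in TBI, without overlap. The 4 calls against TBI (Csf2rb, Csf2rb2, Crlf2 and Il18rap) were all lost with TPM scaling, as were those of Crlf2, Csf2ra and Il18r1 against control.

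The leukotriene pathway, which basophils, mast cells and other myeloid cells use, had 7 of 9 genes tested. Of the 7, 1 was called in TBI against control, 2 in TBI+DEIX against TBI, 3 in DEIX against control and 4 in TBI+DEIX against control, beside 3.99%, 8.10%, 7.24% and 30.0% of all genes. Alox5 and Alox5ap, the 5-lipoxygenase and its activating protein, rose in DEIX against control (0.57, SE 0.14, and 0.86, SE 0.20) and in TBI+DEIX against TBI (0.64, SE 0.14, and 0.98, SE 0.20), with limma adjusted p from 0.0211 to 0.038. With TPM scaling only the call of Alox5ap against TBI held among these 4. Ptgs1, a cyclooxygenase, rose in TBI (0.51, lost with TPM scaling) and in TBI+DEIX (0.78) against control, and Cysltr1, a leukotriene receptor, rose in DEIX (0.80, lost with TPM scaling). Ltc4s, the synthase for the cysteinyl leukotrienes, fell in TBI+DEIX against control (-0.56, SE 0.16, limma adjusted p = 0.0198), a call also lost with TPM scaling. Of the CD200 receptor family, Cd200r1, the inhibitory receptor of myeloid cells, was the 1 of 4 tested that passed in any comparison and rose in the same one (0.76, SE 0.21, limma adjusted p = 0.0174), where Cd200r3 was at -0.33 and did not pass. Of 6 cytokine and chemokine genes tested of 9, Ccl4 and Csf1 fell in TBI against control, where 3.99% of all genes were called. Csf1 rose in TBI+DEIX against TBI (0.57) and Ccl9 rose in DEIX against control (0.76). In TBI+DEIX against control, Tnf rose (0.84) and Ccl4 and Ccl9 fell (-0.83 and -0.55), 3 of 6 beside 30.0% of all genes. With TPM scaling, both calls of Csf1 and that of Ccl9 in DEIX were lost. Il4, the signature cytokine of basophils, was at 0.42 to 0.79 FPKM in control and 0.15 to 0.24 in TBI, too low to be tested.

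Eosinophils are the granulocytes nearest to basophils in the marrow. The summed level of their markers was 175 to 204 FPKM in control, 146 to 213 in TBI, 90.6 to 210 in TBI+DEIX and 99.7 to 245 in DEIX. Of the 8 tested, 7 were lower in TBI than in control, with a median of -0.26, beside 42.2% of all genes lower. Also 7 of 8 were lower in DEIX and in TBI+DEIX against control, with medians of -0.74 and -0.40, beside 47.7% and 47.9% of all genes. Prg3 fell in TBI, beside 3.99% of all genes called. Prg2 and Prg3 fell in DEIX and in TBI+DEIX against control, where 7.24% and 30.0% of all genes were called. With TPM scaling, the calls of Prg3 in TBI and of Prg2 in TBI+DEIX were lost.

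The genes whose values followed the mean of the 6 most closely were Csk, Faah and Mapk1ip1, with Pearson r of 0.93, 0.93 and 0.92 over the 12 libraries among 10413 candidate genes. The other 7 of the first 10 had r from 0.86 to 0.89, and among them Ccl3, a chemokine that basophils and mast cells secrete, was the 1 gene that also stood in a list used here. Without TBI replicate 1 and TBI+DEIX replicate 1, r over these 10 ran from 0.53 for Ccl3 to 0.90 for Faah. Part of the likeness thus rests on those libraries. Ccl3 was at 4.16 to 5.17 FPKM in control and 1.18 to 3.42 in TBI, without overlap, and did not pass (-0.85, SE 0.28, limma adjusted p = 0.139).

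Over the series, gene-level FPKM summed to between 493683 and 848843 per library, and 10359 to 10832 genes reached 1 FPKM. The files give no read totals. In 11 of 12 libraries the steps of low values gave the FPKM worth of 1 read, 0.889 to 1.91 times that of control replicate 1, and in TBI+DEIX replicate 1 it could not be resolved. The neutrophil genes of very high level S100a8, S100a9 and Ngp, are listed at 0 in some libraries. Marker sums of other lineages also moved with the groups: megakaryocyte and platelet markers summed to 107 to 165 FPKM in control and 24.3 to 44.8 in TBI, and stem and progenitor markers to 73.1 to 76.6 and 41.1 to 56.8. B lineage markers summed to 24.6 to 312 FPKM in TBI, 6.19 to 178 in TBI+DEIX and 63.7 to 96.8 in DEIX. Erythroid markers summed to 3276 to 5214 FPKM in control, 1769 to 8165 in TBI, 223 to 1569 in TBI+DEIX and 1352 to 8093 in DEIX. In TBI+DEIX against TBI, 8 of 8 were lower, beside 49.5% of all genes. The part of these lineages in the values of the 6 genes was not tested.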

How the data were processed

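RNA of whole bone marrow from 12 libraries (4 groups of 3) was made into strand-specific mRNA libraries (MGI kit), per the labels' protocols. The submitters' processing notes name STAR 2.6, Cufflinks 2.2.1 and mm10. The authors deposited FPKM per gene, relative to transcript length and to the library's mapped fragments. Counts are not part of the table, so count tests were not applicable and the depth behind a value is unknown. All 21853 identifiers matched GENCODE vM21 protein-coding genes, which gave symbols and coordinates. Promoters are from RefSeq (GRCm38.p6).

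Values were tested as log2(FPKM + 1), which understates the change of low genes, with limma 3.58.1 in R 4.3.3 (group means, all 12 libraries, trend, Benjamini-Hochberg over 10994 genes with FPKM of at least 1 in at least 3 libraries, 2-sided threshold 0.05). Called means an adjusted p under that threshold. The fit was tested on simulated data. All 6 genes are named. Of the other lists, some of the genes that were called or among the 3 of highest level are named. Genes named outside that rule (Ms4a2, Gata2, Hrh4, Il3ra, Il4, Ccl3, cluster neighbours and marker genes) were chosen after their values were seen. The members and lists were chosen with earlier results of these data known. Alternatives were another pseudocount, filter, scaling, set of groups, library weights, replicate block and leaving out libraries.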

Additional observations from a re-analysis of the deposited data

How the results depend on the processing

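Counts of the 6 genes called depended on how the spread was modelled. Library weights raised the calls over all genes as well and give the highest all-gene count of every comparison below. In TBI against control the count of 0 became 4 with a weight per library, 2 with only the groups compared in the fit and 1 with both first irradiated libraries left out (chosen after seeing the data). In TBI+DEIX against TBI the 0 became 2, with library weights, and 1 with both left out, and ranged from 0 to 2 with 1 library left out, reaching 2 without TBI+DEIX replicate 1. In DEIX against control it became 1 with library weights. In TBI+DEIX against control the 1 became 2 with library weights or with both left out, 0 without a filter or with only the groups compared, and ranged from 0 to 1 with 1 library left out; without TBI+DEIX replicate 1 the gene called was Hdc in place of Prss34. The interaction had 0 calls in every setting run.

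With the replicate number as a block, 2 genes (Mcpt8 and Prss34) were called in TBI+DEIX against control, and no call among the 6 changed in the other comparisons. Over all genes the block gave 378 calls in TBI against control, 474 in TBI+DEIX against TBI, 640 in DEIX against control, 3000 in TBI+DEIX against control and 20 for the interaction. The labels state no pairing by number. Same-numbered libraries of different groups correlated at -0.45 to 0.24 in their deviations, above 0.1 in 3 of 18 pairs. Differently numbered pairs were not computed, so this does not settle whether the numbers pair the libraries.

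Of 505 values of the 6 genes' differences under other settings, 458 kept direction and call, 17 gained a call, 7 lost one and 23 changed sign, all 23 from uncalled differences. In TBI+DEIX against TBI, Mcpt8 was at -0.0019 and Prss34 at 0.05004 with both first libraries left out, and Prss34 at 0.0283 with library weights. With 1 library left out, that comparison ran from -0.39 to 0.53 for Mcpt8, -0.54 to 0.43 for Prss34, -0.0888 to 0.78 for Fcer1a and -0.13 to 0.62 for Cpa3. Fcer1a in TBI+DEIX against control was at 0.0254 with both left out and ran from -0.84 to 0.0254. Hdc in TBI against control ran from -0.0121 to 0.17. With 1 library left out, the interaction ran from -0.12 to 0.85 for Prss34, -0.29 to 0.57 for Fcer1a and -0.28 to 0.51 for Hdc, which was at -0.0266 when libraries were scaled without S100a8, S100a9 and Ngp. The cause of these changes was not tested.

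Over all genes, the count called in TBI against control was 439 (134 to 4218, the latter with library weights as are the other upper values here), in TBI+DEIX against TBI 891 (0 to 4488), in DEIX against control 796 (146 to 4508), in TBI+DEIX against control 3299 (1785 to 6187) and for the interaction 22 (4 to 532). The 0 in TBI+DEIX against TBI came with only the groups compared in the fit. TPM scaling moved the median of all genes by -0.14 in DEIX against control, -0.12 in TBI+DEIX against TBI and -0.11 in TBI+DEIX against control.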

Other observations

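By the same measure of likeness, the genes closest to Hdc alone were Pik3cd, a PI3-kinase catalytic subunit of blood cells, and Pgghg and Fhod1, each with a Pearson r of 0.97 over the 12 libraries. None of the 10 genes closest to Hdc was among the 10 closest to the mean of the 6 genes. Several libraries treated with DEIX stand above all others in Hdc, and the correlation within groups was not computed. The likeness to Hdc alone was looked up after its values were seen. Acod1, which makes itaconate in activated myeloid cells, was among the 10, where its mean FPKM was 2.62 (control), 3.22 (TBI), 7.84 (DEIX) and 9.52 (TBI+DEIX). Leaving Hdc out of the mean kept 7 of its 10 closest genes and brought in Alox15, Ehd3 and Pglyrp2.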
